A study of Mus musculus with 15 samples.

Results

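The methionine cycle enzymes were followed through 15 liver RNA libraries of mice that lack or carry Fkbp5, the gene of a co-chaperone of the glucocorticoid receptor. The members are the rows of the deposited gene table that carry the symbols of 9 enzymes: Mat1a, Mat2a, Bhmt, Gnmt, Ahcy, Cbs, Cth, Pemt and Mtr. All 9 were found among 45861 genes, and all 9 were among the 13840 genes tested, a set that reached 1 FPKM in 3 or more libraries. FPKM counts fragments relative to transcript length and to library size, so levels can be compared between genes per length.

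The groups, each of C57BL/6 mice, were 4 livers of Fkbp5 knockout (KO) mice on the ethanol diet, 3 of KO mice on the control diet, 4 of wild-type (WT) mice on the ethanol diet and 4 of WT mice on the control diet. Ethanol in the liquid diet was raised daily to 5% (vol/vol) and held there for 10 days, and a single gavage of 5 g/kg ethanol followed. Control mice had a control diet and a gavage of maltose, and all livers were taken 9 hours after the gavage and snap-frozen. The age and sex of the mice and the making of the Fkbp5 knockout are not given in the sources used here. In bulk liver RNA, fewer cells of a type and less RNA per cell cannot be told apart.

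The liver makes S-adenosylmethionine, the methyl donor of most methyltransferases, from methionine and ATP. Transfer of the methyl group leaves S-adenosylhomocysteine, which is split to homocysteine. Homocysteine is either methylated back to methionine, with betaine or methylfolate as donor, or drained through cystathionine to cysteine and glutathione. This cycle has long been studied in alcoholic liver disease, where hepatic S-adenosylmethionine is known to be low.

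The promoters of the called members whose sequence was at hand are shown because these members moved with the diet. Each line gives the 250 bases before an annotated start (RefSeq, GRCm38.p6), read 5′ to 3′ on the gene's strand. That start lies inside the gene's deposited span, by 28 bases for Cbs and by 2 bases for Mat2a. The last bases of these windows are therefore within the gene. Capitals mark matches, on either strand, to TATAAA, the core promoter element, to CCAAT, bound by NF-Y, to GGGCGG, bound by Sp1 family factors, to AGGTCA, the hexamer of many nuclear receptors, and to CACGTG, known as the E-box. TGTTCT, a hexamer bound by the glucocorticoid receptor, was also searched. A match is a description of the letters, not a binding site.
Mat2a, chr6:72439557-72439806, minus strand: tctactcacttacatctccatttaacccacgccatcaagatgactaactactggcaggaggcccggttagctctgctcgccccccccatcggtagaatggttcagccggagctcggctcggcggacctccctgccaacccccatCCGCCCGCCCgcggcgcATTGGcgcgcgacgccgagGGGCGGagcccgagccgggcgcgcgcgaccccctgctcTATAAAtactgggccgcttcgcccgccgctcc
Bhmt, chr13:93637759-93638008, minus strand: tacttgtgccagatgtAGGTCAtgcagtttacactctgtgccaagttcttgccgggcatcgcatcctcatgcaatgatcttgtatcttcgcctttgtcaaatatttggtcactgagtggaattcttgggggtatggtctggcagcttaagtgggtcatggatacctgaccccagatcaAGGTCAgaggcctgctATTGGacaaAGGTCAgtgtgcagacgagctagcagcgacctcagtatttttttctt
Cbs, chr17:31637206-31637455, minus strand: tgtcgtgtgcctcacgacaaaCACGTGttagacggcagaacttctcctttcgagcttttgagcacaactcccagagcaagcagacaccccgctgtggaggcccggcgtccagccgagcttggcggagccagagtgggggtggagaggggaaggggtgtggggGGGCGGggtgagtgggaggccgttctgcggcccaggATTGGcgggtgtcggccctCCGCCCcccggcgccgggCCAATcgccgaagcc

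The Mat2a window held TATAAA 32 bases before the start, CCAAT on the opposite strand and 3 matches to GGGCGG, of which 2 overlap each other. In the Bhmt window AGGTCA occurred at 234, 72 and 47 bases before the start, all on the gene's strand, with CCAAT on the opposite strand between the last 2. The Cbs window held CACGTG at 229 bases, which reads the same on both strands, and 2 matches each to GGGCGG and CCAAT. Of these, the CCAAT at 15 bases before the start lies inside the deposited span of Cbs. Among 32817 promoter windows of the same length, TATAAA was present in 12.4%, CCAAT in 33.8%, GGGCGG in 32.7%, AGGTCA in 14.03%, CACGTG in 6.02% and TGTTCT in 16.1%. At least 3 matches to AGGTCA, as in the Bhmt window, were found in 0.131% of the windows. Such a share was computed for AGGTCA alone. It was not computed for the repeated GGGCGG and CCAAT, so it does not set the Bhmt window against the other 2. TGTTCT matched in none of the 3 printed windows. G and C made up 67.6% of the Mat2a window, 48.0% of the Bhmt window and 68.0% of the Cbs window, where the median over all windows was 52.4%.

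A few facts of the series touch what follows. Fkbp5 stood between 2.45 and 5.41 FPKM in KO ethanol livers and between 0.351 and 1.56 FPKM in KO control livers, against 23.9 to 54.5 FPKM in WT ethanol livers and 3.27 to 15.2 FPKM in WT control livers. It was lower in KO livers on ethanol, by a log2 difference of -3.12 (limma adjusted p = 0.00568), and on the control diet the difference of -2.13 did not pass the test (limma adjusted p = 0.0702). The title and the genotype label of WT ethanol replicate 4 conflict, the label giving KO. With 45.2 FPKM of Fkbp5 it lay inside the range of the other WT ethanol livers, and it was kept as WT by its title. KO control replicate 1 stood apart: Rn7s1, a signal recognition particle RNA, is listed there at 183800 FPKM and at 0 in the other 14 libraries, and the top 10 genes took 59.3% of its FPKM, compared with 28.5% or less in any other library. KO ethanol replicate 3 has Alb, the albumin gene, listed at 0, while it was at least 11790 FPKM in the other libraries. Estimated depth was 23.3 M to 29.8 M fragments a library. Xist was between 63.3 and 80.2 FPKM in 7 libraries (1 of 4 KO ethanol, 2 of 3 KO control, 2 of 4 WT ethanol and 2 of 4 WT control) and at most 0.672 FPKM in the other 8. Hepatocyte markers were high throughout, with summed levels of 12190 to 30460 FPKM in KO ethanol livers, 23220 to 28970 in KO control, 23760 to 28540 in WT ethanol and 22740 to 26230 in WT control. The lowest of these sums is that of KO ethanol replicate 3, where Alb is listed at 0. Over the 7 hepatocyte markers other than Alb the sums were 9521 to 14340 FPKM in KO ethanol, 9181 to 10590 in KO control, 10590 to 14830 in WT ethanol and 9357 to 11540 in WT control livers. Of the 8 markers 1 was called with ethanol in KO livers, against 4.13% of all tested genes. This was Tat, a tyrosine aminotransferase, which rose by 1.77 on the log2 scale (limma adjusted p = 0.0413). None was called in WT livers (limma, 2 at an unadjusted p under 0.05), against 7.7% of all tested genes. All 9 pancreatic acinar markers were called lower with ethanol in WT livers, against 4.62% of all tested genes. Their summed levels there were 5.79 to 29.5 FPKM on ethanol and 40.3 to 104 FPKM on the control diet. None of those 9 was called with ethanol in KO livers (limma, 1 at an unadjusted p under 0.05), against 4.13% of all tested genes. The sums in KO livers were 3.75 to 7.13 FPKM on ethanol and 7.66 to 23.4 FPKM on the control diet. On the control diet all 9 were lower in KO than in WT livers, and 5 of them were called (limma, 8 at an unadjusted p under 0.05), against 0.181% of all tested genes. The part of these acinar transcripts in the results was not tested.

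By mean level over the 15 libraries the order was Gnmt (890 FPKM), Mat1a (878), Bhmt (722), Ahcy (298), Pemt (119), Cbs (93.2), Cth (85.4), Mat2a (25.4) and Mtr (2.05). The ranges of neighbours in this order overlapped except between Ahcy, at least 145 FPKM, and Pemt, at most 139 FPKM, and between Mat2a, at least 14.9 FPKM, and Mtr, at most 3.53 FPKM. Mat1a lay above 99.45% of the tested genes and Mtr above 26.4%. Among the 4 group means of a member, neighbouring groups were separate once each for Mat1a and Mat2a, between the lower of the 2 ethanol groups and the KO control livers, and overlapped at every step for the other 7 members. An estimated 140 to 511 fragments stood behind each Mtr value and 29750 to 158800 behind each Mat1a value.

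**Figure D1:**
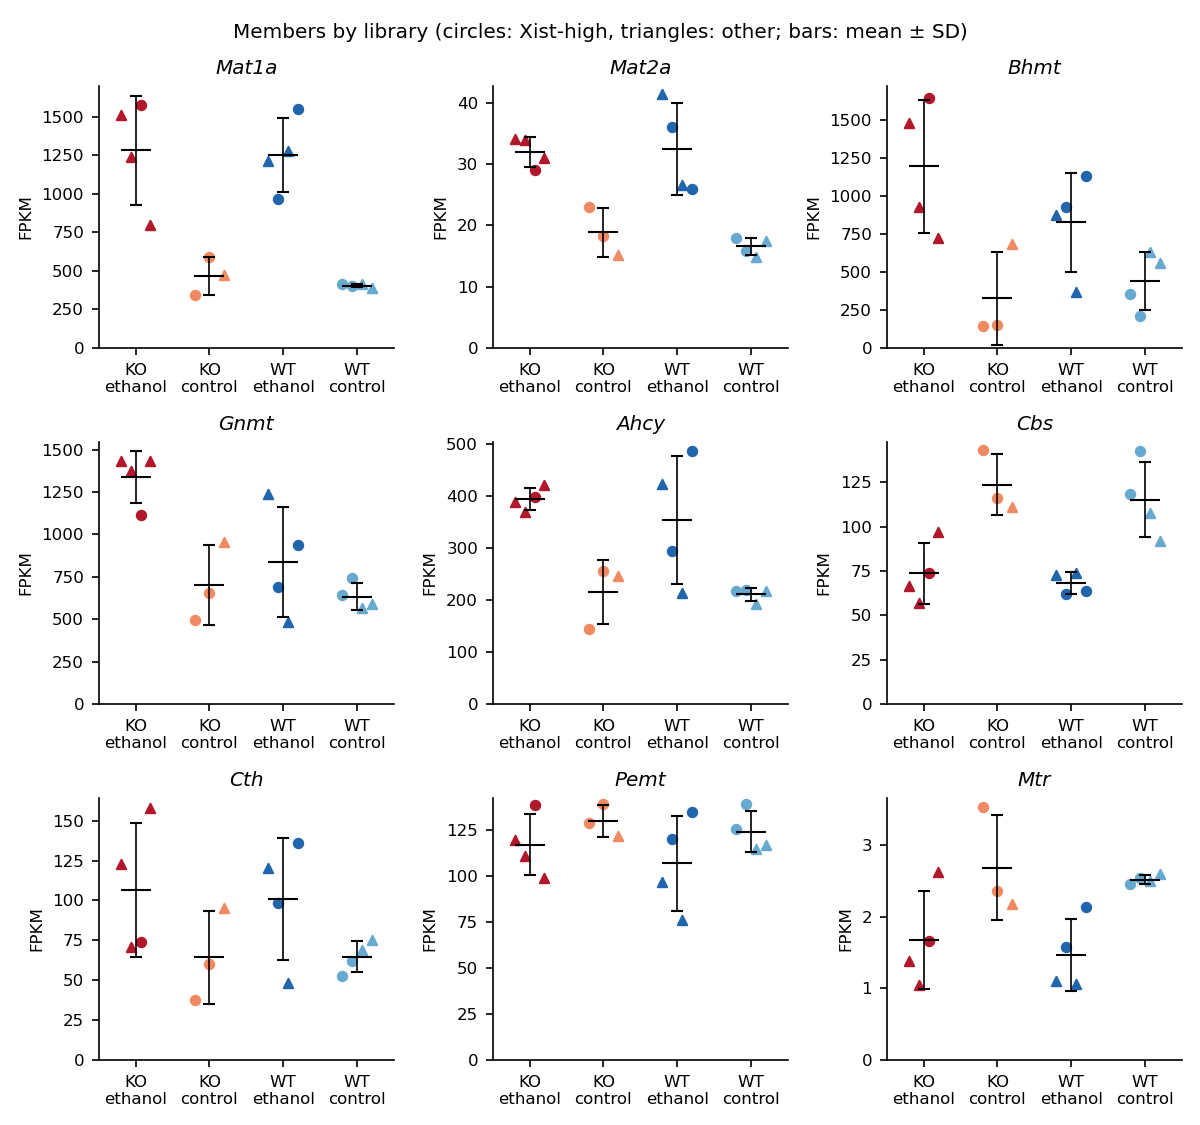
FPKM of the 9 members (y axis, linear from 0) in each library, by group (x axis), with circles for Xist-high libraries, triangles for the others, and the mean ± SD of each group in black. Mat1a and Mat2a stand higher in every ethanol liver than in every control liver, and the SD of Bhmt in KO control livers comes from 1 library at 683 FPKM.

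The diet comparisons ask what the ethanol diet with a binge does to each step of the cycle. Mat1a and Mat2a, which supply the catalytic subunits of S-adenosylmethionine synthetase, rose in livers of both genotypes, Cbs, the first enzyme of transsulfuration, fell in both, and Bhmt, which remethylates homocysteine with betaine, rose in KO livers. In KO livers 4 of the 9 members passed the test (a Benjamini-Hochberg adjusted p under 0.05 over all tested genes, limma), against 4.13% of all tested genes called in that comparison. Of these, 3 were higher on ethanol, against 1.4% of all tested genes, and 1 was lower, against 2.72%. In WT livers 3 of the 9 passed it, against 7.7% of all tested genes, with 2 higher on ethanol, against 3.09%, and 1 lower, against 4.62%. Without KO control replicate 1 and KO ethanol replicate 3, which stood apart, 1 of the 9 passed the test in KO livers, Mat2a, with a log2 difference of 0.94 (limma adjusted p = 0.0359). In that fit 275 of 13840 tested genes were called in KO livers, against 571 with all libraries. The median log2 difference of the 9 members was 0.75 in KO livers, where the median over all tested genes was -0.10, and 0.54 in WT livers, where it was -0.04. Log2 differences here are ethanol minus control on the log2(FPKM + 1) scale, which understates the change of low genes such as Mtr. The ranges of ethanol and control livers did not overlap for 6 members in KO, against 20.9% of tested genes, and for 4 members in WT, against 15.7% of tested genes.

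Mat1a, the catalytic subunit gene of the adult hepatocyte, lies on chromosome 14 (GRCm38, 41105008 to 41124428). It stood at 1512, 1242, 1575 and 799 FPKM in KO ethanol livers and at 341, 588 and 471 FPKM in KO control livers. WT livers had 1211, 969, 1281 and 1551 FPKM on ethanol and 414, 400, 416 and 391 FPKM on the control diet. All 8 ethanol livers were above all 7 control livers, and KO ethanol replicate 4 was the lowest of the ethanol livers. With ethanol the log2 difference was 1.44 ± 0.24 (SE) in KO livers (limma adjusted p = 0.0105) and 1.61 ± 0.23 in WT livers (limma adjusted p = 0.00251). In KO livers the call was lost when only the groups compared were fitted (limma adjusted p = 0.0747) and when KO control replicate 1 and KO ethanol replicate 3 were left out together (log2 difference 1.12, limma adjusted p = 0.0546).

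Mat2a, the catalytic subunit gene expressed in most other cells and in growing liver, lies on chromosome 6 (72432799 to 72439558). It stood at 34.1, 33.9, 29.0 and 31.0 FPKM in KO ethanol livers and at 23.1, 18.3 and 15.2 FPKM in KO control livers. In WT livers it stood at 41.4, 36.1, 26.6 and 25.9 FPKM on ethanol and at 17.95, 15.9, 14.9 and 17.5 FPKM on the control diet. Here too every ethanol liver was above every control liver. This gave a log2 difference of 0.75 ± 0.17 (SE) in KO livers (limma adjusted p = 0.0316) and 0.91 ± 0.16 in WT livers (limma adjusted p = 0.00752). The KO call was lost without KO control replicate 2 or 3 or KO ethanol replicate 1 or 2, where the limma adjusted p reached 0.108, with no filter on low values (0.0554) and with only the groups compared (0.0732). The gene overlaps Particl on the opposite strand, which averaged 1.73 FPKM, and whether the libraries kept strand is not given in the sources used here.

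The proportion of the 2 synthetase genes was then compared, since the balance of Mat1a and Mat2a is used as a mark of differentiated hepatocytes. The ratio of Mat1a to Mat2a was 44.3, 36.7, 54.3 and 25.8 in KO ethanol livers and 14.8, 32.1 and 31.0 in KO control livers. It was 29.3, 26.9, 48.2 and 59.9 in WT ethanol livers and 23.0, 25.2, 27.9 and 22.4 in WT control livers. The ranges overlapped in both genotypes. The log2 ratio was 5.24 ± 0.46 (SD, n = 4) in KO ethanol and 4.54 ± 0.62 (n = 3) in KO control livers, and the difference of 0.69 had a 2-sided exact permutation p of 0.171. For WT it was 5.23 ± 0.55 on ethanol and 4.53 ± 0.14 on the control diet (SD, n = 4 each), and the difference of 0.70 had an exact permutation p of 0.0571. The smallest p that these group sizes allow is 0.0286. KO minus WT differences of the log2 ratio were 0.0013 on ethanol and 0.0068 on the control diet, each with an exact permutation p of 1.

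Mat1a has 2 isoforms in the deposited table, of 3340 and 3486 bases. The shorter one held 63.1, 63.9, 68.4 and 62.5% of the Mat1a FPKM in KO ethanol livers and 52.6, 54.5 and 51.9% in KO control livers, and these ranges did not overlap. In WT livers it held 55.6, 56.6, 61.5 and 62.0% on ethanol and 56.9, 54.7, 58.8 and 51.3% on the control diet, which overlap. Both isoforms averaged higher on ethanol, the longer one at 451 ± 110 FPKM in KO ethanol and 219 ± 53.5 FPKM in KO control livers (SD, n = 4 and 3). Isoform shares from short reads are estimates and were not tested. Isoform shares of Gnmt, Cbs and Mtr also separated the KO groups. The 1032-base Gnmt isoform held 95.76 to 96.46% in KO ethanol and 94.94 to 95.37% in KO control livers. For the 2458-base Cbs isoform this was 14.57 to 32.23% against 4.642 to 13.31%. For the 3394-base Mtr isoform it was 19.48 to 43.23% against 0.0023 to 10.48%. In Cth and Pemt the shares of every isoform overlapped. How often the shares of genes outside the members separate these KO groups was not computed. For gene levels, the ranges of 20.9% of tested genes did not overlap between them.

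**Figure D2:**
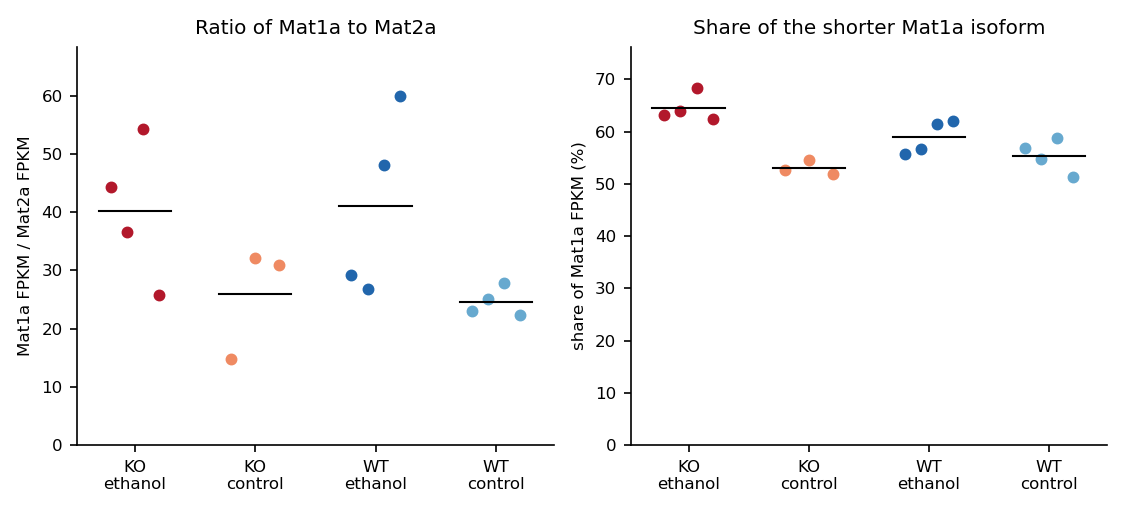
Left, the ratio of Mat1a to Mat2a FPKM in each library, and right, the share of Mat1a FPKM (%) held by the 3340-base isoform, by group, with a black line at the group mean. The isoform share separates the KO ethanol livers (62.5 to 68.4%) from the KO control livers (51.9 to 54.5%), while the ratios overlap within both genotypes. How often isoform shares of other genes do so was not computed.

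Gnmt, the glycine N-methyltransferase that disposes of excess S-adenosylmethionine, was not called in either genotype. It stood at 1435, 1376, 1114 and 1435 FPKM in KO ethanol livers and at 493, 655 and 954 FPKM in KO control livers. WT livers had 1239, 690, 484 and 940 FPKM on ethanol and 641, 740, 564 and 588 FPKM on the control diet. The KO groups did not overlap, while WT ethanol livers lay on both sides of the WT control livers. The fitted log2 difference was 0.98 ± 0.29 (SE) in KO livers (limma adjusted p = 0.0705) and 0.33 ± 0.27 in WT livers (limma adjusted p = 0.462). In KO livers it passed the test in 2 alternatives, without WT ethanol replicate 1 (limma adjusted p = 0.0477) and without WT ethanol replicate 3 (limma adjusted p = 0.0368). Its 1032-base isoform held at least 92.7% of the Gnmt FPKM in every library of all 4 groups.

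Ahcy encodes the hydrolase that splits S-adenosylhomocysteine. It stood at 387, 369, 397 and 420 FPKM in KO ethanol livers and at 145, 255 and 245 FPKM in KO control livers. WT livers had 422, 293, 212 and 486 FPKM on ethanol and 217, 219, 192 and 216 FPKM on the control diet. The KO groups did not overlap, and in WT a single ethanol liver, replicate 3, lay within the control range. The log2 difference was 0.91 ± 0.26 (SE) in KO livers (limma adjusted p = 0.062) and 0.67 ± 0.24 in WT livers (limma adjusted p = 0.0966). Ahcy passed the test in some alternatives. In WT livers this was so in 1, without WT ethanol replicate 3, where the difference was 0.89 (limma adjusted p = 0.0321). In KO livers it was so in 5, with limma adjusted p between 0.0266 and 0.0496: the 5 FPKM filter, median-ratio scaling, WT ethanol replicate 4 placed with KO ethanol, and without WT ethanol replicate 3 or 4.

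Of the remethylating enzymes, Bhmt uses betaine and Mtr, the methionine synthase, uses methylfolate and cobalamin. Bhmt (chromosome 13, 93616891 to 93637758) stood at 1480, 930, 1643 and 726 FPKM in KO ethanol livers and at 142, 155 and 683 FPKM in KO control livers. In WT livers it stood at 879, 928, 366 and 1132 FPKM on ethanol and at 357, 213, 635 and 563 FPKM on the control diet. The KO groups did not overlap, with KO control replicate 3 close below the lowest KO ethanol liver, and the WT groups overlapped. With ethanol the log2 difference was 2.19 ± 0.57 (SE) in KO livers (limma adjusted p = 0.0485) and 0.91 ± 0.53 in WT livers (limma adjusted p = 0.297).

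The Bhmt call in KO livers was close to the threshold. It held in 9 of 27 alternative settings, with limma adjusted p between 0.022 and 0.232, and the log2 difference lay between 1.62 and 2.92. Leaving out 1 library, it held only without KO control replicate 3 (log2 difference 2.92), WT ethanol replicate 3 or WT ethanol replicate 4 and was lost with each of the other 12 left out in turn. A term for the Xist class gave 2.05 with a limma adjusted p of 0.0789. The pseudogene Bhmt-ps1 followed Bhmt, with a ratio of Bhmt to Bhmt-ps1 of 6.08 to 6.60 in all 15 libraries. Reads shared by the near-identical copies cannot be separated in this table, so the Bhmt level is uncertain.

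Mtr was not called in either genotype. It stood at 1.38, 1.05, 1.67 and 2.63 FPKM in KO ethanol livers and at 3.53, 2.36 and 2.18 FPKM in KO control livers. WT livers had 1.11, 1.58, 1.06 and 2.14 FPKM on ethanol and 2.46, 2.54, 2.50 and 2.60 FPKM on the control diet. In WT every ethanol liver was below every control liver, and in KO the highest ethanol liver lay inside the control range. This gave a log2 difference of -0.48 ± 0.19 (SE) in KO livers (limma adjusted p = 0.176) and -0.53 ± 0.18 in WT livers (limma adjusted p = 0.0858). In WT livers it passed the test in 3 alternatives, with limma adjusted p between 0.0304 and 0.0454: WT ethanol replicate 4 placed with KO ethanol, and without WT ethanol replicate 4 or KO ethanol replicate 4.

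Cbs, cystathionine beta-synthase, commits homocysteine to transsulfuration, and Cth, cystathionine gamma-lyase, releases cysteine from cystathionine. Cbs (chromosome 17, 31612623 to 31637233) stood at 66.5, 57.1, 73.7 and 97.1 FPKM in KO ethanol livers and at 143, 116 and 111 FPKM in KO control livers. WT livers had 72.6, 62.3, 74.0 and 63.9 FPKM on ethanol and 118, 142, 108 and 91.9 FPKM on the control diet. Within each genotype every ethanol liver was below every control liver. The fitted log2 difference was -0.76 ± 0.18 (SE) in KO livers (limma adjusted p = 0.0388) and -0.73 ± 0.17 in WT livers (limma adjusted p = 0.0231).

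The Cbs calls depended on the settings and held in 11 of 27 alternatives in KO livers and in 21 of 27 in WT livers. In KO livers the call was lost under median-ratio scaling, which moved the median of all genes by 0.09 and gave -0.64 (limma adjusted p = 0.113). It was also lost under a common sum of FPKM, which moved that median by 0.26 and gave -0.41, or -0.58 relative to the new median (limma adjusted p = 0.369). The FPKM sum of KO control replicate 1, where Rn7s1 is listed at 183800 FPKM, was 790741, against at most 525108 in any other library. The part of that library in the shift was not tested. A term for the Xist class, which separated Cbs on the control diet, gave -0.72 and a limma adjusted p of 0.0634, and quantile normalization gave -0.64 and 0.127. It was lost with no filter on low values (limma adjusted p = 0.0688), with only the groups compared (0.111) and without KO control replicate 1 and KO ethanol replicate 3 together (0.162). It was also lost without any KO library except KO ethanol replicate 4 (limma adjusted p up to 0.135), and without WT control replicate 1 or 3. In WT livers it was lost without WT control replicate 1 or 2 or WT ethanol replicate 1 or 2, where the limma adjusted p reached 0.0737, and under a common sum of FPKM (0.0504). Its direction was the same in all 27 alternatives in each genotype.

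Cth stood at 123, 71.1, 74.0 and 158 FPKM in KO ethanol livers and at 37.5, 60.2 and 95.4 FPKM in KO control livers. WT livers had 121, 98.3, 48.2 and 136 FPKM on ethanol and 52.8, 62.2, 68.8 and 75.4 FPKM on the control diet. The groups overlapped in both genotypes, and neither difference passed the test, at 0.74 ± 0.39 (SE) in KO (limma adjusted p = 0.287) and 0.54 ± 0.36 in WT (limma adjusted p = 0.359).

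Pemt, which makes phosphatidylcholine by methylating phosphatidylethanolamine in hepatocytes, varied least among the 9 members, with a root mean square spread of 0.23 on the log2 scale over the 15 libraries. Its level was 98.9 to 138 FPKM in KO ethanol livers, 122 to 139 FPKM in KO control livers, 75.8 to 135 FPKM in WT ethanol livers and 115 to 139 FPKM in WT control livers. The log2 difference was -0.16 in KO livers, with a 95% interval of -0.55 to 0.22, and -0.24 in WT livers, with an interval of -0.60 to 0.11. Neither passed the test (limma adjusted p = 0.637 in KO and 0.373 in WT), and the intervals leave room for moderate decreases.

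**Figure D3:**
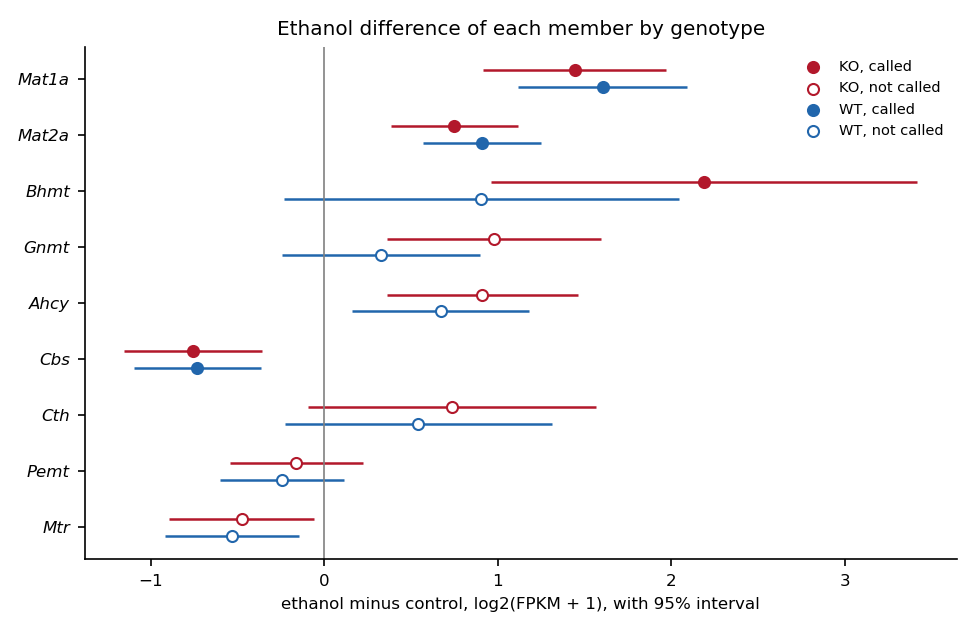
Ethanol minus control log2(FPKM + 1) of each member (x axis) with its 95% interval, KO above WT in each row, with filled points for members called at an adjusted p under 0.05. Mat1a, Mat2a and Cbs are called in both genotypes and Bhmt in KO, where its interval runs from 0.96 to 3.42.

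The genotype comparisons ask whether loss of Fkbp5 moved these enzymes on either diet, and whether it changed their ethanol response. On the ethanol diet none of the 9 members was called by limma (1 at an unadjusted p under 0.05), against 0.101% of all tested genes. On the control diet none was called (0 at an unadjusted p under 0.05), against 0.181% of all tested genes. The largest difference on ethanol was that of Gnmt, at 1340 ± 154 FPKM in KO and 838 ± 326 FPKM in WT livers (SD, n = 4 each). This log2 difference of 0.75 ± 0.27 (SE) had an unadjusted p of 0.0134 and a limma adjusted p of 0.875. WT ethanol replicate 1, at 1239 FPKM, lay inside the KO range.

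The ranges of KO and WT livers overlapped for all 9 members on both diets, while they did not overlap for 2.44% of tested genes on ethanol and 6.81% on the control diet. On the ethanol diet the KO minus WT difference of Mat1a was 0.01 with a 95% interval of -0.48 to 0.49, and that of Mat2a was 0.00 with an interval of -0.34 to 0.34. On the control diet the difference of Bhmt was -0.72 with an interval of -1.94 to 0.51, the widest of the members.

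No gene (0%) was called for a different ethanol response between the genotypes, with 553 of 13840 genes at an unadjusted p under 0.05 (limma) and none of the 9 members among them. The response of Bhmt was 1.29 larger in KO than in WT livers, with a 95% interval of -0.39 to 2.96, and that of Gnmt was 0.65 larger, with an interval of -0.19 to 1.49. For Cbs the difference of the responses was -0.03, with an interval of -0.57 to 0.51, and its sign turned to 0.04 under median-ratio scaling. The call of Bhmt in KO and not in WT therefore does not show that the genotypes differ. Cbs lies 3.13 Mb and Gnmt 18.2 Mb from Fkbp5 on chromosome 17, and neither was called between genotypes.

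Xist separated some members on the control diet. The ranges of Xist-high and other libraries did not overlap there for 4 of the 9 members, against 19.3% of tested genes, and on the ethanol diet for 1 of the 9, Pemt, against 11% of tested genes. Bhmt stood between 142 and 357 FPKM in 4 Xist-high control livers and between 563 and 683 FPKM in the 3 other control livers. Cth stood between 37.5 and 62.2 FPKM in the Xist-high and between 68.8 and 95.4 FPKM in the other control livers. Cbs and Pemt lay the other way, Cbs at 116 to 143 FPKM in the Xist-high and 91.9 to 111 FPKM in the other control livers, and Pemt at 126 to 139 FPKM in the Xist-high and 115 to 122 FPKM in the other control livers. With a term for the Xist class over all 15 libraries none of the 9 members was called (1, Pemt, at an unadjusted p under 0.05), against 4.93% of tested genes, and Pemt had a log2 difference of 0.32 with a limma adjusted p of 0.0657.

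The ethanol difference was therefore also read within each class, over both genotypes. Among Xist-high livers the ethanol and control ranges did not overlap for 7 of the 9 members, against 21.5% of tested genes, and among the other livers for 2 of the 9, Mat1a and Mat2a, against 23.7% of tested genes. Bhmt stood at 928 to 1643 FPKM in 3 Xist-high ethanol livers against 142 to 357 FPKM in 4 Xist-high control livers. In the other class it stood at 366 to 1480 FPKM in 5 ethanol livers against 563 to 683 FPKM in 3 control livers, which overlap. KO ethanol livers held 1 Xist-high library of 4 and KO control livers 2 of 3, and the part of this imbalance in the Bhmt call was not tested beyond the Xist term given above.

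**Figure D4:**
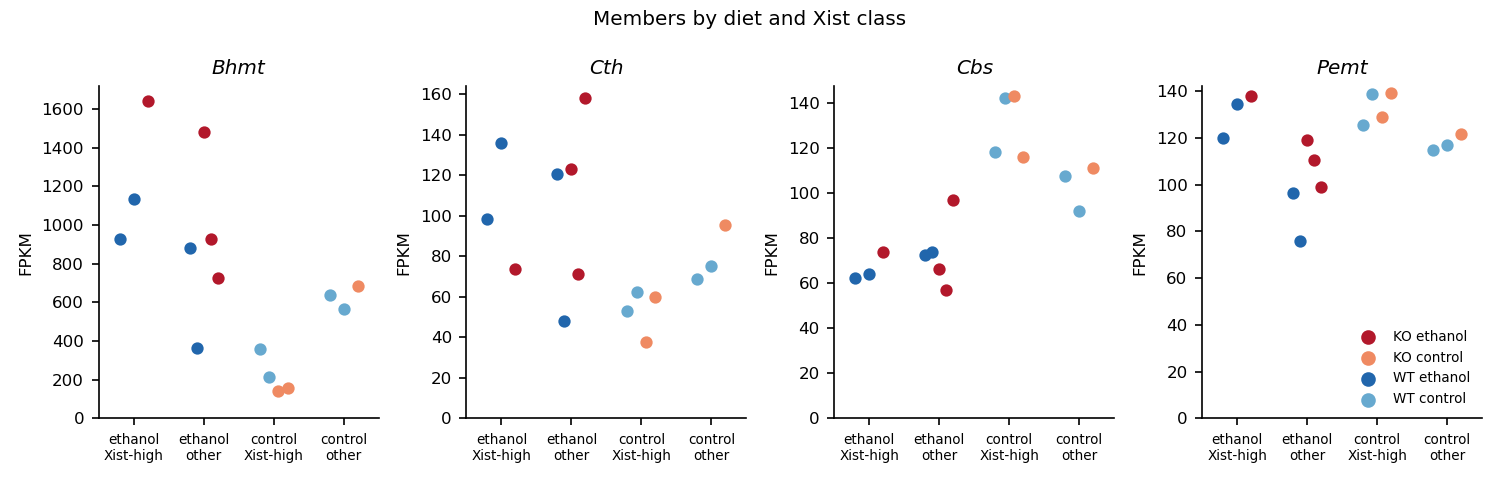
FPKM of Bhmt, Cth, Cbs and Pemt (y axes from 0) by diet and Xist class, coloured by group. On the control diet the 2 classes do not overlap for any of these 4 genes, and Bhmt in Xist-high livers is higher on ethanol in every library.

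The other genes around the cycle were taken from 9 lists of known pathway members. Over all tested genes, 1.4% were called higher and 2.72% lower with ethanol in KO livers. In WT livers these shares were 3.09% and 4.62%. The calls in the lists below stand beside these shares. None of 11 further methionine cycle genes was called with ethanol in KO livers (2 at an unadjusted p under 0.05, limma) or in WT livers (0 at an unadjusted p under 0.05). Those 2 in KO livers were Bhmt2, a paralog of Bhmt that uses S-methylmethionine, at 0.62 (limma adjusted p = 0.174), and Slc25a26, the mitochondrial S-adenosylmethionine carrier, at -0.34 (limma adjusted p = 0.116). The lowest p of that list in WT livers was that of Mat2b, the regulatory subunit of the Mat2a enzyme, at 0.16 (limma adjusted p = 0.284). The median of that list was -0.01 in KO and 0.10 in WT livers, where the median over all tested genes was -0.10 in KO and -0.04 in WT.

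Among enzymes that spend methyl groups, 1 of 13 was called higher in WT livers, against 3.09% of all tested genes. The fitted difference was positive for 4 of the 13 in WT and for 6 of the 13 in KO livers. The called gene was Nnmt, which methylates nicotinamide. In WT livers it stood at 155 ± 65.0 FPKM on ethanol and at 39.7 ± 18.6 FPKM on the control diet (SD, n = 4 each, limma adjusted p = 0.0143). Nnmt in KO livers was 121 ± 44.0 FPKM on ethanol and 39.1 ± 18.8 FPKM on the control diet (SD, n = 4 and 3), with a limma adjusted p of 0.0516. In KO livers 1 of the 13 was called lower, against 2.72% of all tested genes. This was Dnmt1, the maintenance DNA methyltransferase, which fell by 0.54 on the log2 scale (limma adjusted p = 0.0399). Among the genes of choline, betaine and glycine handling, Gatm, which starts creatine synthesis, fell in both genotypes, with log2 differences of -1.06 in KO (limma adjusted p = 0.0445) and -1.18 in WT (limma adjusted p = 0.0156).

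Of 9 tested genes of the CDP-choline and CDP-ethanolamine routes to phospholipid, none was called in KO livers (2 at an unadjusted p under 0.05, limma). Those were Pcyt2, at -0.57 (limma adjusted p = 0.0595), and Chka, a choline kinase, at 1.31 (limma adjusted p = 0.0849). Pcyt2, which makes CDP-ethanolamine, fell in WT livers to 71.1 ± 7.06 FPKM on ethanol, against 142 ± 19.8 FPKM on the control diet (SD, n = 4 each, limma adjusted p = 0.0034). Among the folate genes, Slc19a1, the reduced folate carrier, rose in both genotypes, by 0.97 in KO (limma adjusted p = 0.02) and 0.78 in WT (limma adjusted p = 0.0216), and Aldh1l1, which oxidizes formyl-tetrahydrofolate, rose in KO livers by 0.91 (limma adjusted p = 0.0488). Among 8 tested cobalamin genes Abcd4, a lysosomal cobalamin transporter, rose in KO livers by 1.05 (limma adjusted p = 0.029), and in WT livers none was called (limma, 2 at an unadjusted p under 0.05). Those were Mmab, which makes adenosylcobalamin, at -0.82 (limma adjusted p = 0.0615), and Abcd4, at 0.70 (limma adjusted p = 0.0633).

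Downstream of Cbs and Cth, 1 of 14 tested genes passed the test in each genotype, against 4.13% of all tested genes in KO and 7.7% in WT livers. Csad, which makes hypotaurine from cysteine sulfinate on the way to taurine, fell in KO livers to 10.4 ± 2.29 FPKM on ethanol, against 48.1 ± 14.6 FPKM on the control diet (SD, n = 4 and 3, limma adjusted p = 0.0226). Got1, a cytosolic aspartate aminotransferase, rose in WT livers to 168 ± 66.5 FPKM on ethanol, against 59.4 ± 17.99 FPKM on the control diet (SD, n = 4 each, limma adjusted p = 0.0238). Of 6 tested serine genes, Sdsl, a serine dehydratase-like gene, rose in both genotypes, by 1.32 in KO (limma adjusted p = 0.0312) and 1.08 in WT (limma adjusted p = 0.0334). Of 13 polyamine and methionine salvage genes, Odc1, the ornithine decarboxylase, rose in both, by 0.76 in KO (limma adjusted p = 0.0228) and 1.00 in WT (limma adjusted p = 0.00304), and Paox, a polyamine oxidase, fell in both, by 0.96 in KO (limma adjusted p = 0.0472) and 1.34 in WT (limma adjusted p = 0.00718). Sat1, the spermidine and spermine acetyltransferase, rose in WT livers by 0.79 (limma adjusted p = 0.0417). None of these list genes was called between genotypes or for a different ethanol response.

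**Figure D5:**
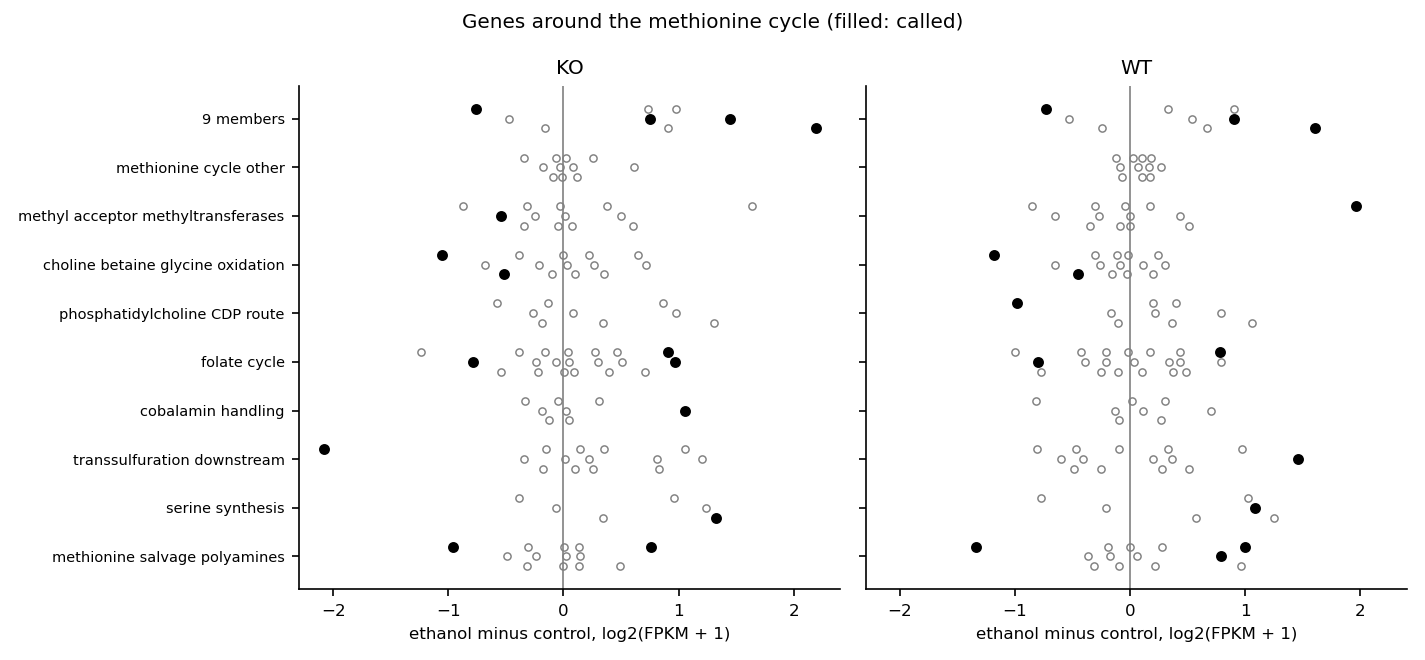
Ethanol minus control log2(FPKM + 1) (x axis) of the 9 members and of each tested gene of the 9 pathway lists (rows), KO left and WT right, with filled points for called genes. The members hold 4 called genes in KO and 3 in WT, where 4.13% and 7.7% of all tested genes were called. The further methionine cycle genes hold none in either panel.

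Some zone markers of the liver lobule changed with the same diet. Of 10 periportal markers, 2 were called higher in KO livers (Asl and Arg1), against 1.4% of all tested genes. In WT livers 3 were called higher (Cps1, Asl and Arg1), against 3.09%. All of these are urea cycle enzymes. The fitted difference was positive for 10 of the 10 markers in KO and for 7 of the 10 in WT livers. The summed level of the 10 was 3737 to 4776 FPKM in KO ethanol livers and 2644 to 3210 FPKM in KO control livers, and 2791 to 4907 FPKM in WT ethanol livers and 2566 to 3219 FPKM in WT control livers. Of 9 pericentral markers, Rgn was called lower in KO livers, against 2.72% of all tested genes, and Rgn and Lgr5 in WT livers, against 4.62%. Lgr5 averaged 0.748 FPKM in WT ethanol and 2.43 FPKM in WT control livers. The fitted difference was positive for 4 of the 9 markers in KO and for 2 of the 9 in WT livers. Mean Cyp1a2, for example, was higher on ethanol, at 206.5 against 106.0 FPKM in KO and 225.7 against 100.6 FPKM in WT livers. The summed level of the 9 was 2393 to 3260 FPKM in KO ethanol and 2524 to 4236 FPKM in KO control livers, and 2207 to 3204 FPKM in WT ethanol and 2642 to 3884 FPKM in WT control livers. None of the zone markers had a group mean of 0, and the part of zonation in the member results was not tested.

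Genes whose profile over the 15 libraries lay nearest to each member were named by the root mean square distance of centred log2(FPKM + 1), over 11243 genes with a standard symbol. Nearest to Mat1a was Glrx, a glutaredoxin gene, at 0.15, and next the urea cycle gene Asl, at 0.26, where the root mean square of the Mat1a profile itself was 0.82. Nearest to Mat2a were Atp6v0e (0.15) and St3gal1 (0.16), and nearest to Bhmt, after its pseudogene at 0.04, was Adora1 at 0.54. Cyp2d22 was among the 2 nearest to both Gnmt (0.23) and Cth (0.31), and Gpld1 to both Gnmt (0.24) and Ahcy (0.19). For Cbs these were Abca2 and Tsc1, at 0.19 each, for Pemt Papd5 and Thap11, at 0.09 each, and for Mtr Gramd1a (0.09) and Slc9a9 (0.10). The remaining neighbours were Sfxn1 for Ahcy (0.20) and Tor1a for Cth (0.30).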

How the data were processed

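Total RNA of 15 snap-frozen mouse livers was sequenced on an Illumina NextSeq 500, per the labels' protocols. The authors deposited gene and isoform FPKM, made with TopHat, Cufflinks and Cuffdiff per the submitters' processing notes, whose versions are not given in the sources used here. The tables used here hold FPKM and no counts, so no count model was applied. The notes name mm9, but positions in the tables match GRCm38, which is the build printed. Groups follow the sample titles. Mice are labelled as separate animals, 4 per group, and KO control has 3 libraries here. P-values rest on the variation among the libraries of a group.

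Genes reaching 1 FPKM in 3 or more libraries were tested on log2(FPKM + 1), with a pseudocount of 1, using limma 3.58.1 in R 4.3.3 (lmFit, eBayes with trend) on 4 group means of all 15 libraries. There were 5 contrasts, 2-sided, with Benjamini-Hochberg adjustment over 13840 genes and calls under 0.05. The Mat1a to Mat2a ratio was compared with exact permutation tests. The fit and the depth estimate were tested on simulated data. An Xist-high library has over 10 FPKM of Xist. Precision is limited by the depth, and fragment numbers cover counting error only. The alternatives were another pseudocount, filters, scalings, a robust spread model, only the groups compared, a replicate block, an Xist term, WT ethanol replicate 4 placed with KO ethanol, and each library left out. Leaving out KO control replicate 1 and KO ethanol replicate 3 together was chosen after seeing the data. Promoters are RefSeq's (GRCm38.p6), and 7 of the 9 members matched. The members and lists were chosen with earlier results of these data known. All members are named, as are list genes that were called and, where none was, those with the lowest p, at most 3 per list and comparison, and the 2 nearest profiles per member. Some called list genes are not reported here. Tables and plots used Python 3.11.15, numpy 2.4.6, pandas 2.3.3 and matplotlib 3.10.9.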

Additional observations from a re-analysis of the deposited data

Results flagged for a closer look

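Ahcy in WT control replicate 3 stood apart from its group. It was 191.8 FPKM, while the other 3 WT control livers lay between 216.1 and 218.5 FPKM, so that the gap below them took up most of the range of the group. Among 30 groups of 4 libraries tested in this way, chance alone would single out about 1 in 20.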

How the results depend on the processing

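Every called member kept its direction in its 27 alternatives. Mat1a and Mat2a stayed called in WT livers in all of them, Cbs in WT in 21, and in KO livers Mat1a stayed called in 25, Mat2a in 21, Cbs in 11 and Bhmt in 9. The replicate block ended the call of Cbs in KO (limma adjusted p = 0.0846) and in WT (0.0558) and of Bhmt in KO (0.0859). Members called in KO livers, 4 as reported, numbered 1 with no filter, 2 with quantile normalization, 0 with only the groups compared (limma, 6 at an unadjusted p under 0.05), 2 with the replicate block, 2 with the Xist term, 1 with KO control replicate 1 and KO ethanol replicate 3 left out together, and 1 to 6 with 1 library left out. The cause was not tested.

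Genes called with ethanol in WT livers, 1066 as reported, numbered 642 with no filter, 492 with a common sum, 518 with only the groups compared, 673 with the replicate block, 1827 with WT ethanol replicate 4 placed with KO, and 384 to 1772 with 1 library left out. In KO livers, 571 as reported, they numbered 327 with no filter, 97 with only the groups compared, 303 with the replicate block, 275 without these 2 libraries, and 95 to 754 with 1 library left out. Between genotypes on the control diet, 25 as reported, they numbered 6 with a pseudocount of 0.1, 4 with the 5 FPKM filter, 15 with quantile normalization, 4 with only the groups compared, 14 with the regrouped library, 44 without these 2 libraries and 1 to 50 with 1 left out. On the ethanol diet, 14 as reported, they numbered 6 with the 5 FPKM filter, 6 with a common sum, 2 with only the groups compared, 9 with the replicate block, 22 with the Xist term, 0 with the regrouped library (limma, 1617 at an unadjusted p under 0.05), 3 without these 2 libraries and 4 to 15 with 1 left out. For the difference of responses, 0 as reported (limma, 553 at an unadjusted p under 0.05), 1 gene was called with no filter, and 0 to 43 with 1 left out, 43 without KO control replicate 1.

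Signs that turned belonged to differences that were not called. Under a common sum, Pemt with ethanol in KO was 0.19. KO minus WT on the control diet, a common sum gave Mat1a -0.18, Mat2a -0.17, Gnmt -0.25, Cbs -0.23, Pemt -0.28 and Mtr -0.20, after moving the median of all genes by -0.27. That scaling divides KO control replicate 1 by an FPKM sum that holds its Rn7s1 value. Quantile normalization gave Gnmt -0.0465, Cbs -0.0119 and Pemt -0.0688, the replicate block gave Ahcy 0.0594 and Cth 0.0583, and leaving out these 2 libraries gave Ahcy 0.25, Cth 0.24 and Mtr -0.11. On the ethanol diet the regrouped library gave Mat2a -0.15, and leaving out these 2 libraries gave Mat1a -0.11. For the difference of responses, median-ratio scaling gave Cbs 0.0428, quantile normalization gave Mat1a 0.19 and Cbs 0.20, a common sum gave Mat1a 0.30, Mat2a 0.29 and Cbs 0.44, the replicate block gave Mtr -0.0389, the Xist term gave Cbs 0.0149, the regrouped library gave Mat1a 0.0103, and leaving out these 2 libraries gave Mat2a 0.0350, Ahcy -0.0275, Cbs 0.0743 and Pemt -0.0058. The log2 ratio of Mat1a to Mat2a between genotypes on the control diet was -0.0004 with a pseudocount of 0.1.

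With 1 library left out, the KO minus WT difference on the control diet ran from -0.16 to 0.25 for Ahcy, -0.43 to 0.24 for Cth, -0.11 to 0.15 for Mtr, -0.0156 to 0.38 for Mat1a, -0.15 to 0.33 for Gnmt and -0.19 to 0.36 for the log2 ratio. On the ethanol diet it ran from -0.11 to 0.22 for Mat1a, -0.0929 to 0.13 for Mat2a, -0.22 to 0.27 for Cth, -0.0015 to 0.27 for Pemt, -0.0553 to 0.20 for Cbs, -0.0504 to 0.23 for Mtr and -0.17 to 0.21 for the log2 ratio. The difference of responses ran from -0.17 to 0.0847 for Cbs, -0.10 to 0.21 for Mtr, -0.14 to 0.53 for Cth, -0.0689 to 0.20 for Pemt, -0.0225 to 0.42 for Ahcy and -0.37 to 0.0477 for Mat1a. The ethanol difference of the log2 ratio in WT ran from 0.49 to 0.87, and without WT ethanol replicate 2 it reached an exact permutation p of 0.0286.

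Of 21 same-numbered pairs of libraries, 7 had a correlation of deviations over 0.1, with a range of -0.33 to 0.44. Pairs with different numbers were not compared, so whether replicate numbers pair the libraries was not tested. Depth limits Mtr most, where the counting error at its lowest value is 8.45%.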

Other observations

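Pemt on the ethanol diet was 120 to 138 FPKM in 3 Xist-high livers and 75.8 to 119 FPKM in the 5 other livers. The Kupffer cell markers had summed levels of 20.7 to 70.2 FPKM in KO ethanol livers and 45.4 to 235 FPKM in KO control livers, and of 35.7 to 84.7 FPKM in WT ethanol livers and 60.7 to 130 FPKM in WT control livers. None of the 6 was called in either genotype (limma, 5 at an unadjusted p under 0.05 in KO and 0 in WT).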
